A study of Mus musculus with 8 samples.

Results

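The genes described here are 47 mouse genes of the G1/S transition and of DNA replication, read on Affymetrix arrays of activated CD4 T cells from wild-type mice and mice without Smad2 or Smad3. They were chosen from a list of known G1/S and replication genes, and each was read from its brightest probe set that carries only that gene's symbol. All 47 listed genes were found among the 18193 gene symbols of the array, and all 47 passed a filter on low signals that left 9453 genes for testing.

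A cell commits to division when cyclin D with Cdk4 or Cdk6, and then cyclin E with Cdk2, phosphorylate the retinoblastoma family of pocket proteins and so free E2F transcription factors, which turn on genes for DNA synthesis. Origins are marked by the origin recognition complex, loaded with the Mcm helicase by Cdc6 and Cdt1, and fired in S phase, when the helicase is activated and polymerases, the Pcna clamp and a supply of deoxynucleotides come into play. TGF-b is best known in lymphocytes as a signal that restrains proliferation. Its receptor phosphorylates Smad2 and Smad3, which enter the nucleus and act on transcription.

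Naive CD4 T cells (CD25 negative, CD44 low, CD62L high) had been sorted from spleens of C57BL/6J mice at a purity over 98%. They were cultured for 24 h on antibody to CD3e with antibody to CD28 (1 ug/ml each), with IL-2 (10 ng/ml) and with antibodies that block IFN-g and IL-4 (10 ug/ml each), so every group was activated and kept under those blocking antibodies. Of each genotype 1 culture received TGF-b at 2 ng/ml and 1 did not. The genotypes were wild type (WT), Smad2del/del with the deletion made in T cells (Smad2KO), Smad3-/- (Smad3KO), and Smad2del/del Smad3+/- (Smad2KO_Smad3het), which stood in for cells without both Smads because naive cells of that kind were scarce. The sources used here name neither the promoter that drove deletion of Smad2 nor any pooling of animals. Each of the 8 combinations had 1 array, so ratios of 2 arrays are given with no p, and tests use the 3 genotypes as replicates of the treatment, or the treatments as replicates of a genotype. Nothing in the labels ties the cultures to different animals, and each p-value here reflects the spread among single arrays, which may be partly technical.

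The 6 WT, Smad2KO and Smad3KO arrays resembled each other, with rank correlations from 0.907 to 0.928 over probe sets, and the Smad2KO_Smad3het arrays stood apart at 0.660 to 0.693. The 7 CD4 T cell markers that were named on the array were bright (a scaled signal of at least 65.0) on all 6 arrays. No B cell marker of 5, no NK cell marker of 3 and no erythroid marker of 3 was bright on any of the 6. Of 7 myeloid markers 1 was bright on any of them (Csf1r, at 54.1 to 122), and both CD8 genes were bright on at least 1 array but not on all 6. On the Smad2KO_Smad3het arrays the summed signals of all these lists but that of CD4 T cells were higher. They were 595 and 1110 for B cells (77.2 to 98.6 on the other 6) and 4192 and 3241 for myeloid cells (114 to 227). CD8 T cells had 1232 and 1582 (68.2 to 161), NK cells 417 and 850 (15.2 to 77.5) and erythroid cells 193 and 376 (14.5 to 78.1). The CD4 T cell sum was lower, 20454 and 21815 against 27145 to 29223. Scaling multiplied these arrays by 2.33 and 2.61. Their median scaled signals were 103 and 107, against 30.7 to 35.7 on the other 6. The Smad2KO_Smad3het arrays are therefore given apart and enter only an alternative fit. What part the marker signals or the scaling have in the values of these arrays was not tested. The 3′ probe set for 18S ribosomal RNA read 4020 for WT without TGF-b and between 79.5 and 912 on the other 5 arrays. Its 5′ set read 3147 for WT without TGF-b, 2544 and 997 for Smad3KO without and with TGF-b, and 35.0 to 123 on the other 3 arrays. The part of this signal in the results was not tested. The Smad2 probe set read 1155 and 1046 for Smad2KO without and with TGF-b, against 1068 and 1031 for WT, and the Smad3 probe set read 614 and 730 for Smad3KO against 149 and 548 for WT. Neither was lower in its own knockout. The sources used here do not place these probe sets inside or outside the deleted exons, so they check nothing, and genotypes are those of the labels.

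Promoters of 38 of the 47 genes were in the RefSeq table of GRCm38.p6, as 250 bases before and 50 bases after the start. An E2F site, spelled TTTCCCGC, TTTGGCGC, TTTCGCGC or TTTGGCGG on either strand, was found for 18 of the 38 (47.4%), and for 730 of all 27025 genes in the table (2.7%). Over single promoters the share was 2.37% of 32851. The CCAAT box (CCAAT, either strand) was found for 23 of the 38 (60.5%, all genes 41.1%) and the cell cycle homology region (TTTGAA, either strand) for 6 (15.8%, all genes 20.2%). E2F spellings can overlap one another, as they do in Mcm5 and Mcm6. A match is only a match of letters in this window. Windows around matches lie wholly before the start in 12 genes, and 8 of these are shown as examples from helicase loading (Mcm5, Mcm6, Mcm7, Orc1, Cdc6), polymerase (Pola1) and cell cycle kinase control (Cdk2, Cdc25a), with E2F letters in capitals. The other 4, of Rbl1, Rfc3, Gins3 and E2f3, are not shown. They run 5′ to 3′ along the gene's own strand, at chr8:75109331-75109392 (plus) for Mcm5, chr1:128359720-128359840 (minus) for Mcm6, chr5:138172016-138172073 (minus) for Mcm7, chr4:108579402-108579453 (plus) for Orc1, chr11:98907988-98908045 (plus) for Cdc6, chrX:93632261-93632318 (minus) for Pola1, chr10:128705159-128705216 (minus) for Cdk2 and chr9:109875487-109875544 (plus) for Cdc25a.
Mcm5: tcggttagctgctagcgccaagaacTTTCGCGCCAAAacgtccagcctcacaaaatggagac
Mcm6: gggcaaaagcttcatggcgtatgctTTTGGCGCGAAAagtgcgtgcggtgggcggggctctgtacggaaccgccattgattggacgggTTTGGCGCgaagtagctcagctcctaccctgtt
Mcm7: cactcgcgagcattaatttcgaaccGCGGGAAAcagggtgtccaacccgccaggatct
Orc1: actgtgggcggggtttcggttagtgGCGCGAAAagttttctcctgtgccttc
Cdc6: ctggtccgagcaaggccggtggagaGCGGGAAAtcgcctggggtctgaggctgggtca
Pola1: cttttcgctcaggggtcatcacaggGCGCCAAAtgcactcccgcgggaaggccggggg
Cdk2: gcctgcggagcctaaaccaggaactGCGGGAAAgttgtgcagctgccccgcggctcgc
Cdc25a: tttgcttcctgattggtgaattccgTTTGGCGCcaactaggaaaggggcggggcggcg

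The E2F match sat 27 bases before the start in Orc1, 67 in Cdc25a, 138 in Cdc6 and Pola1, 140 in Cdk2 and 165 in Mcm7, which had a further match, not shown, 16 bases after the start. Mcm5 had a pair of overlapping matches at 153 and 149 bases, and Mcm6 an overlapping pair at 110 and 106 and a further one at 47. Promoters of the other 9 genes, Ccnd2, Ccne2, Gins1, Gins2, Gmnn, Mcm4, Pole, Prim2 and Rb1, were not analysed here.

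The 47 genes were bright in every culture and their signals stayed in a narrow band. On the 6 arrays their median signal, in arbitrary units after each array was scaled to a common trimmed mean, was 1336 to 1555. The median gene stood at the 89.6th to 90.8th percentile of the 18193 genes, each read from its brightest single-gene probe set. None lay under the floor of 32.5. The highest of the 6 signals was 1.09 to 1.87 times the lowest, with a median over genes of 1.31, and no gene differed 2-fold between any pair of these arrays. Brightness of different probe sets does not order their transcripts, so each gene is compared only with itself. RNA came from whole cultures, in which fewer cells in S phase and less RNA per cell cannot be told apart.

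**Figure D1:**
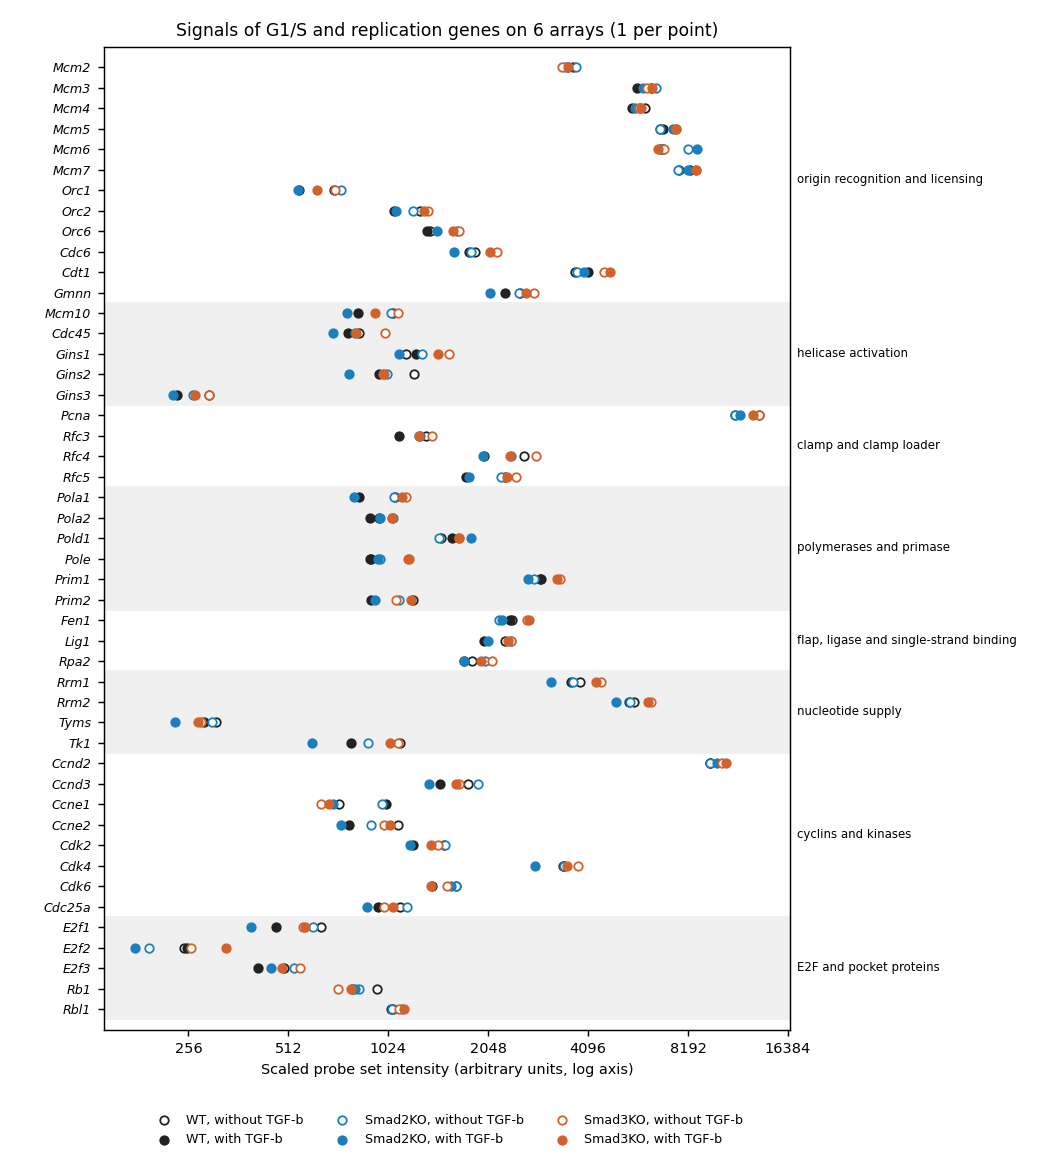
Scaled signal of each of the 47 genes on the 6 WT, Smad2KO and Smad3KO arrays (log axis, arbitrary units), 1 point per array, open without and filled with TGF-b, with genes ordered by role on shaded bands. Within a gene the points lie close together, from 1.09-fold to 1.87-fold between the lowest and the highest array; positions of different genes on the axis reflect different probe sets.

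Averaged over the 3 genotypes, 5 of the 47 genes fell with TGF-b (10.6%) and none rose at an adjusted p under 0.05. They were Mcm10, Orc1, Rfc4, Rfc5 and Tk1, and the falls were small, from 0.27 to 0.38 on the log2 scale. Over all 9453 genes 5.61% were called lower and 7.16% higher by the same test (limma with Benjamini-Hochberg adjustment). At an unadjusted p under 0.05, 14 of the 47 were lower (29.8%) and 0 higher, against 14.5% of all genes lower and 28.1% in either direction. The median response of the 47 genes was -0.13, with 36 below 0 and 11 above, against a median of -0.02 and 53.5% below 0 for all genes. The count depended on which pairs of arrays entered: 0 of the 47 were called without the WT pair, 0 without the Smad2KO pair and 13 without the Smad3KO pair. It was 0 when all probe sets of a gene were averaged, when no filter was set, when the Smad2KO_Smad3het arrays were added, when genotype was left out of the fit, and when limma's trend and robust options were off.

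**Figure D2:**
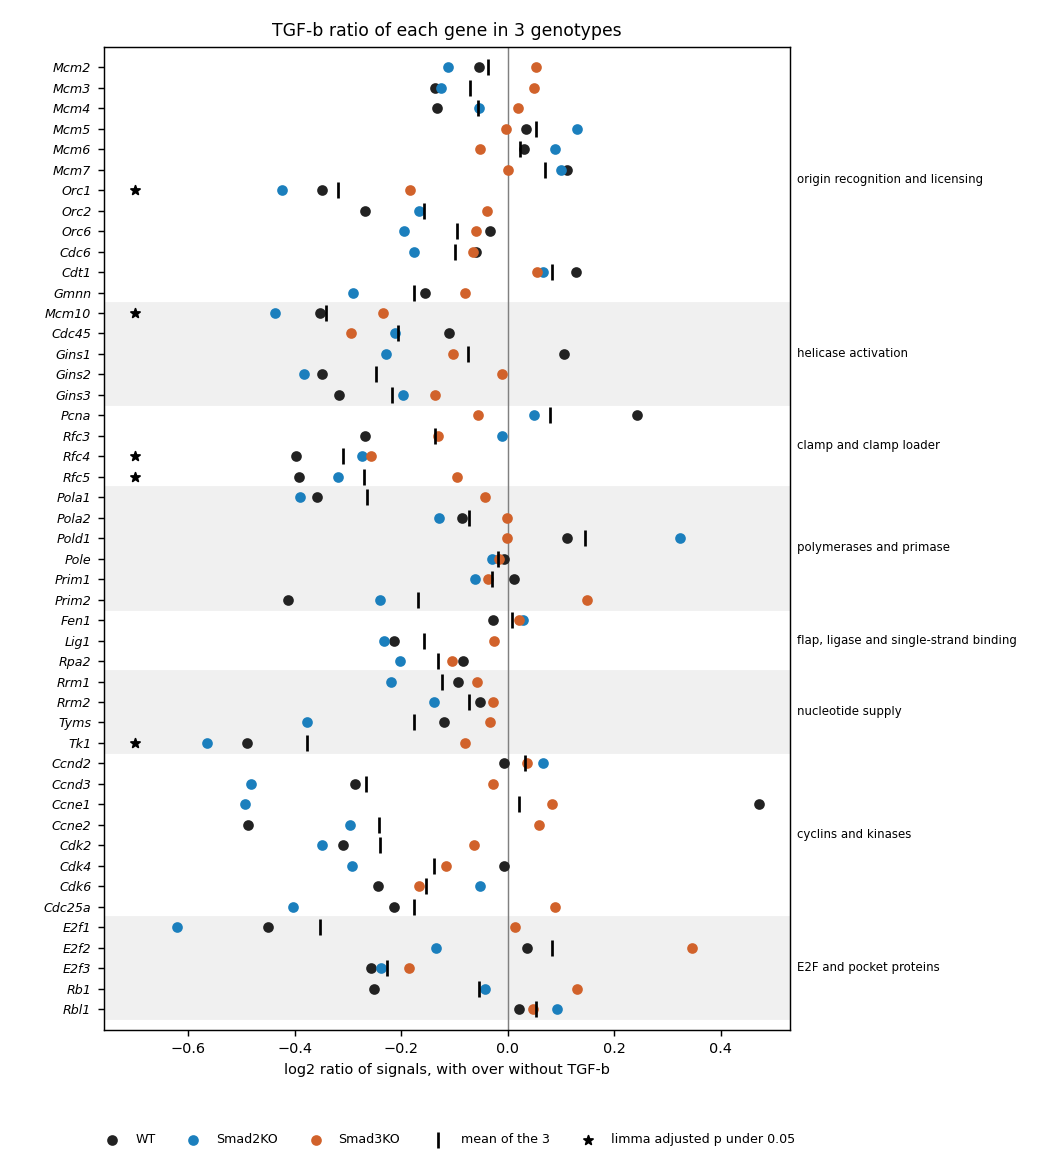
Log2 ratio of signals with over without TGF-b for each gene in WT, Smad2KO and Smad3KO (points), with the mean of the 3 (bar) and a star for the 5 genes with an adjusted p under 0.05 in limma. Most bars lie left of 0, and Smad3KO points crowd nearer to 0 than those of the other genotypes.

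Among the genes that recognise and license origins, Orc1 alone of 12 was called (all genes 5.61% lower). Pairs of values below give the signal without and then with TGF-b, and values of 3 genotypes follow the order WT, Smad2KO, Smad3KO. Orc1, the largest subunit of the origin recognition complex, read 703 without and 552 with TGF-b in WT, 737 and 549 for Smad2KO, and 707 and 623 for Smad3KO. All 3 cultures with TGF-b were lower than all 3 without. The share of all genes that separate in this way is not given here, for Orc1 or for genes below. The fold was 1.27 for WT, 1.34 for Smad2KO and 1.14 for Smad3KO, and the mean log2 response was -0.32 (SE 0.0925, limma adjusted p 0.0428). A second, dimmer Orc1 probe set read 222 and 208, 224 and 208, and 263 and 302, and so showed no such difference.

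The other subunits and loaders had smaller ratios. Orc2 had log2 ratios of -0.27 for WT, -0.17 for Smad2KO and -0.04 for Smad3KO, and Orc6 of -0.03, -0.19 and -0.06. Cdc6, the ATPase that brings the helicase to the origin, had -0.06, -0.18 and -0.07. Gmnn encodes geminin, which holds Cdt1 inactive after origins have fired, and had -0.16, -0.29 and -0.08 (mean -0.18, SE 0.0712, adjusted p 0.130). Its partner Cdt1 ran the other way in its brightest set. That set read 3733 and 4080 for WT, 3790 and 3968 for Smad2KO, and 4580 and 4755 for Smad3KO. It was higher with TGF-b in each genotype (mean log2 response 0.08, SE 0.0649, adjusted p 0.442). A second, dimmer Cdt1 set had ratios of -0.05, 0.04 and 0.04, with a mean of 0.01, and so was lower in WT.

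The 6 subunits of the Mcm2-7 helicase, the motor that unwinds DNA ahead of the fork, stayed close to 0. Their mean log2 responses lay between -0.07 for Mcm3 and 0.07 for Mcm7, with SE of 0.0659 to 0.0690, and Mcm2 stood at -0.04, Mcm4 at -0.06 and Mcm6 at 0.02. Mcm5 read 6719 and 6883 for WT, 6749 and 7390 for Smad2KO, and 7542 and 7520 for Smad3KO. Mcm7 read 7696 and 8315, 7661 and 8213, and 8649 and 8650. Both were at or above the untreated value in WT and Smad2KO and level in Smad3KO, and neither passed the test (adjusted p 0.636 and 0.521). Both values come from sets of the kinds that can bind other transcripts. The other bright Mcm5 set read 3861 and 3474, 3976 and 3822, and 3740 and 3582, lower with TGF-b each time, and with sets of those kinds left out the mean was -0.09. Over all Mcm7 sets the mean was 0.00.

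The genes that turn the loaded helicase on were lower in 5 of 5 cases on average (all genes 53.5% below 0). Mcm10 was the 1 called (all genes 5.61% lower). Mcm10, a scaffold needed for origin firing, read 1058 and 829 for WT, 1042 and 770 for Smad2KO, and 1099 and 934 for Smad3KO. The treated and untreated cultures did not overlap in this set. Its folds were 1.28, 1.35 and 1.18, and its mean log2 response was -0.34 (SE 0.0837, adjusted p 0.0201). A much dimmer Mcm10 set read 92.6 and 110 for WT, 130 and 103 for Smad2KO, and 156 and 110 for Smad3KO. It was higher with TGF-b in WT, and its treated and untreated cultures overlapped. The dimmest set had ratios of -0.38, -0.43 and -0.51.

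Cdc45, which joins the helicase with the GINS complex, read 834 and 772 for WT, 810 and 700 for Smad2KO, and 1003 and 817 for Smad3KO, and its ratio of -0.29 was the lowest of the 47 genes in Smad3KO. Its mean response was -0.21 (SE 0.0857, adjusted p 0.141). The GINS subunits differed among themselves. Gins2 had log2 ratios of -0.35 for WT, -0.38 for Smad2KO and -0.01 for Smad3KO. Gins3 read 296 and 237 for WT, 264 and 230 for Smad2KO, and 295 and 268 for Smad3KO, lower with TGF-b each time (mean -0.22, SE 0.121, adjusted p 0.266). Gins1 read 1157 and 1245, 1290 and 1101, and 1555 and 1448, and so was higher with TGF-b in WT and lower in both knockouts.

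Of 4 genes of the clamp and its loader 2 were called, both of the loader (all genes 5.61% lower). Rfc4, a small subunit of replication factor C, which opens the Pcna ring and places it on DNA, read 2622 and 1991 for WT, 2396 and 1981 for Smad2KO, and 2847 and 2384 for Smad3KO. All treated cultures were below all untreated ones, with folds of 1.32, 1.21 and 1.19 and a mean log2 response of -0.31 (SE 0.0695, adjusted p 0.0129), the smallest p of the 47 genes. A second, dimmer Rfc4 set read 1200 and 1082, 1137 and 944, and 1464 and 1323. It was lower with TGF-b in each genotype, but the treated Smad3KO culture was above the untreated WT and Smad2KO ones. Rfc5, another small subunit, read 2300 and 1752, 2233 and 1789, and 2488 and 2329. It was lower with TGF-b in each genotype, but the treated Smad3KO culture was above the untreated Smad2KO one. Its mean log2 response was -0.27 (SE 0.0776, adjusted p 0.0417), a call that was lost under 8 of 14 alternatives, quantile normalization among them (adjusted p from 0.00620 to 0.241). Rfc3 had ratios of -0.27, -0.01 and -0.13. Pcna, the sliding clamp that tethers polymerases, read 11338 and 13414 for WT, 11355 and 11743 for Smad2KO, and 13396 and 12892 for Smad3KO, so it was higher with TGF-b in WT and Smad2KO and lower in Smad3KO (mean 0.08, SE 0.0738, adjusted p 0.525).

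No polymerase or primase gene was called. Pola1, the catalytic subunit of the polymerase that starts each fragment, came closest, with log2 ratios of -0.36 for WT, -0.39 for Smad2KO and -0.04 for Smad3KO (mean -0.26, SE 0.0917, adjusted p 0.0832). Its partner Pola2 had -0.09, -0.13 and 0.00, and Prim1, the catalytic primase subunit, had 0.01, -0.06 and -0.04. Prim2, the large primase subunit, read 1213 and 910 for WT, 1104 and 935 for Smad2KO, and 1080 and 1197 for Smad3KO, lower with TGF-b in the first pair of genotypes and higher in the last (mean -0.17, SE 0.106, adjusted p 0.334). Pold1, the catalytic subunit of polymerase delta, read 1477 and 1596, 1455 and 1820, and 1674 and 1672, and its ratio of 0.32 was the highest of the 47 genes in Smad2KO (mean 0.14, SE 0.0816, adjusted p 0.274). Pole, of polymerase epsilon, was flat at -0.01, -0.03 and -0.02.

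Of the genes that finish and protect the new strand, the flap nuclease Fen1 had ratios of -0.03, 0.03 and 0.02, and none of the 3 was called. DNA ligase Lig1 had -0.21 for WT, -0.23 for Smad2KO and -0.03 for Smad3KO (mean -0.16, SE 0.0729, adjusted p 0.183). Rpa2, a subunit of the single-strand binding protein, had -0.08, -0.20 and -0.11.

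In their brightest sets all 4 genes of nucleotide supply were lower with TGF-b in all 3 genotypes (all genes 26.5%). Tk1 was called (all genes 5.61% lower). Tk1, the thymidine kinase of the salvage pathway, read 1113 and 793 for WT, 890 and 601 for Smad2KO, and 1097 and 1038 for Smad3KO. Its log2 ratios were -0.49, -0.57 and -0.08, and treated and untreated cultures overlapped because the treated Smad3KO culture was above the untreated Smad2KO one. The mean log2 response was -0.38 (SE 0.103, adjusted p 0.0327), the largest of the 47. Thymidylate synthase Tyms read 309 and 285, 302 and 233, and 279 and 273 (mean -0.18, SE 0.123, adjusted p 0.382). The ribonucleotide reductase subunits had smaller ratios, -0.09, -0.22 and -0.06 for Rrm1 and -0.05, -0.14 and -0.03 for Rrm2.

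No cyclin, kinase or phosphatase gene of the 8 passed the test in its brightest probe set. Cyclin D3, Ccnd3, had ratios of -0.29 for WT, -0.48 for Smad2KO and -0.03 for Smad3KO (mean -0.27, SE 0.0902, adjusted p 0.0783), and its kinase partners Cdk4 and Cdk6 had -0.01, -0.29 and -0.12, and -0.24, -0.05 and -0.17. Ccnd2, the other D cyclin on the list, had -0.01, 0.07 and 0.04. Cdk2, which drives S phase entry with cyclin E, had -0.31, -0.35 and -0.06 (mean -0.24, SE 0.0827, adjusted p 0.0813). Cdc25a, the phosphatase that removes inhibitory phosphates from Cdk2, had -0.21, -0.40 and 0.09. Cyclin E2, Ccne2, read 1094 and 780 for WT, 909 and 740 for Smad2KO, and 994 and 1036 for Smad3KO, lower in the first pair of genotypes and higher in the last (mean -0.24, SE 0.106, adjusted p 0.163).

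The reading of cyclin E1, Ccne1, depended on the probe set. Its brightest set, of the kind that can cross-hybridise with other transcripts, read 725 and 1006 for WT, 979 and 696 for Smad2KO, and 641 and 679 for Smad3KO, the highest ratio of the 47 genes in WT (0.47) beside one of the lowest in Smad2KO (-0.49). Its other set read 767 and 593, 820 and 428, and 1003 and 775, lower with TGF-b in every genotype. With sets of the cross-hybridising kinds left out, an alternative chosen after seeing the data, Ccne1 fell by 0.56 on the log2 scale (SE 0.119, adjusted p 0.0127) and 6 genes were called lower.

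E2F1, the classical activator of S phase genes, had the lowest ratio of the 47 for Smad2KO. E2f1 read 643 and 471 for WT, 607 and 395 for Smad2KO, and 568 and 573 for Smad3KO. It was 1.37-fold and 1.54-fold lower with TGF-b in WT and Smad2KO, the latter the only 1 of the 47 past 1.5-fold on these arrays, and level in Smad3KO, and its mean response did not pass (-0.35, SE 0.123, adjusted p 0.0883). A second, dimmer E2f1 set read 199 and 190 for WT, 257 and 184 for Smad2KO, and 232 and 248 for Smad3KO. Its ratios were -0.07, -0.48 and 0.10, so the fall in WT was hardly seen in that set. The activator E2f3 read 497 and 416, 534 and 453, and 556 and 489, lower each time (mean -0.23, SE 0.0947, adjusted p 0.142). E2f2 read 248 and 254 for WT, 194 and 177 for Smad2KO, and 261 and 331 for Smad3KO, where its ratio of 0.35 was the highest of the 47. The pocket protein Rb1 read 946 and 795, 837 and 813, and 721 and 790, and its relative Rbl1 had ratios of 0.02, 0.09 and 0.05, higher with TGF-b in each genotype.

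Within single genotypes few ratios were large. In WT 0 of the 47 were 1.5-fold lower and 0 higher, where 7.69% and 9.37% of all genes were. In Smad2KO E2f1 was the 1 lower gene (2.13%) and 0 were higher, against 6.15% and 6.25%. In Smad3KO there were 0 and 0, against 2.82% and 5.30%. The median ratio was -0.12 for WT, -0.20 for Smad2KO and -0.03 for Smad3KO, and over all genes tested -0.01, -0.03 and 0.00. The number of genes below 0 was 36, 38 and 32. Ratios lay within 0.2 of 0 for 25 genes in WT, 23 genes in Smad2KO and 43 genes in Smad3KO. The median size of the ratio, whatever its sign, was 0.14, 0.20 and 0.06 for the 47 genes. Over all genes tested that size was 0.24, 0.19 and 0.14, so it was smallest in Smad3KO there too. These shares and sizes are not matched for signal. The 47 genes were bright, while all genes tested include those near the filter. In the mean response the median SE was 0.0791 for the 47 and 0.111 for all genes. What part signal has in the smaller ratios was not tested.

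**Figure D3:**
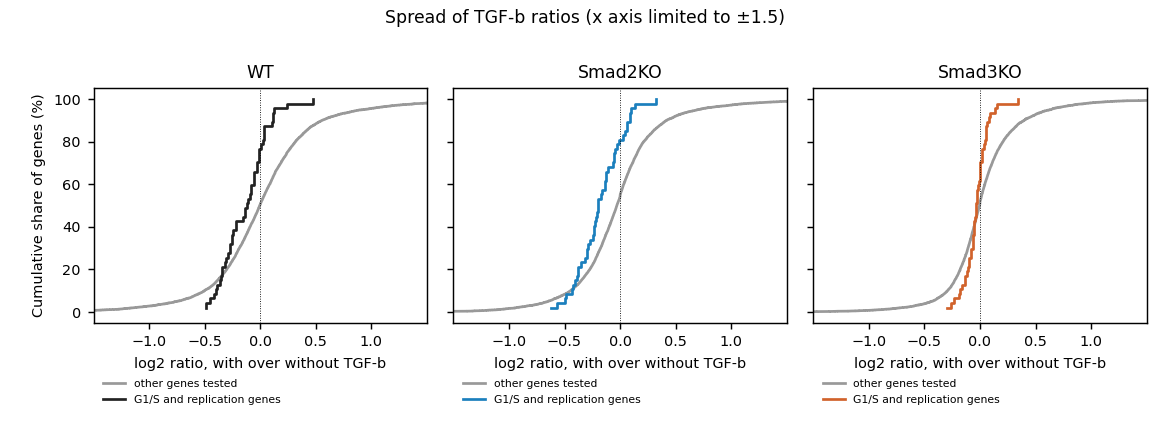
Cumulative share of genes (%) against the log2 ratio with over without TGF-b, for the 47 genes (coloured steps) and the other genes tested (grey), in WT, Smad2KO and Smad3KO. The coloured steps rise within a narrower range than the grey curves and cross 50% left of 0, at -0.12, -0.20 and -0.03. The other genes tested were not matched to the 47 for signal.

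In all 3 genotypes 26 of the 47 were lower with TGF-b (55.3%), against 26.5% of all genes. In their brightest sets Cdt1, Rbl1 and Mcm7, the last at 0.00 for Smad3KO, were higher in all of them. Together 29 of the 47 had the same direction in all 3 (61.7%), against 49.5% of all genes. Across the 47 genes the ratios of WT and Smad2KO had a Pearson r of 0.539 (Spearman 0.653), those of WT and Smad3KO 0.261 (0.275) and those of Smad2KO and Smad3KO 0.189 (0.252), over points that come from 1 pair of arrays each. The ratio was nearer 0 in Smad3KO than in both WT and Smad2KO for 32 of the 47 (68.1%), against 47.4% of all genes.

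The difference between the Smad3KO response and the others was tested directly. The Smad3KO response exceeded the mean response of WT and Smad2KO by a median of 0.10, with 36 of 47 differences above 0 (all genes, median 0.01 and 48.1% below 0). In limma 0 of the 47 passed, against 0.381% of all genes, and 6 of the 47 had an unadjusted p under 0.05 (12.8%, all genes 8.38%). These were E2f1 (0.55, SE 0.203, adjusted p 0.404), Prim2 (0.48, SE 0.172, adjusted p 0.381), Ccne2 (0.45), Tk1 (0.45), Cdc25a (0.40) and Ccnd3 (0.36). The second sets of Prim2 and Cdc25a, with ratios of -0.32, -0.39 and -0.19 and of -0.27, -0.12 and -0.08, were lower with TGF-b in Smad3KO too. The WT response against the mean of the knockouts gave 0 of 47, against 0.0212% of all genes, and 2 of the 47 at an unadjusted p under 0.05 (4.26%, all genes 7.43%), Ccne1 (0.68, SE 0.251, adjusted p 0.634) and Pcna (0.25, SE 0.0993, adjusted p 0.658). Each fit left 1 residual degree of freedom before moderation.

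Levels were compared between genotypes next, over both treatments. The 3 comparisons use the same 6 arrays, and WT serves 2 of them, so they are not independent. Against WT 0 of the 47 passed in Smad2KO and 0 passed in Smad3KO, where 1.00% and 0.465% of all genes did, and at an unadjusted p under 0.05 there were 4 (8.51%) and 11 (23.4%), against 887 and 1040 of the 9453 genes. The median difference was -0.02 for Smad2KO and 0.14 for Smad3KO, and -0.01 and 0.01 over all genes. Smad3KO was above WT in both treatments for 29 genes (61.7%, all genes 27.4%). Smad2KO was above WT in both for 10 (21.3%, all genes 26.4%) and below WT in both for 18 (38.3%, all genes 30.0%).

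**Figure D4:**
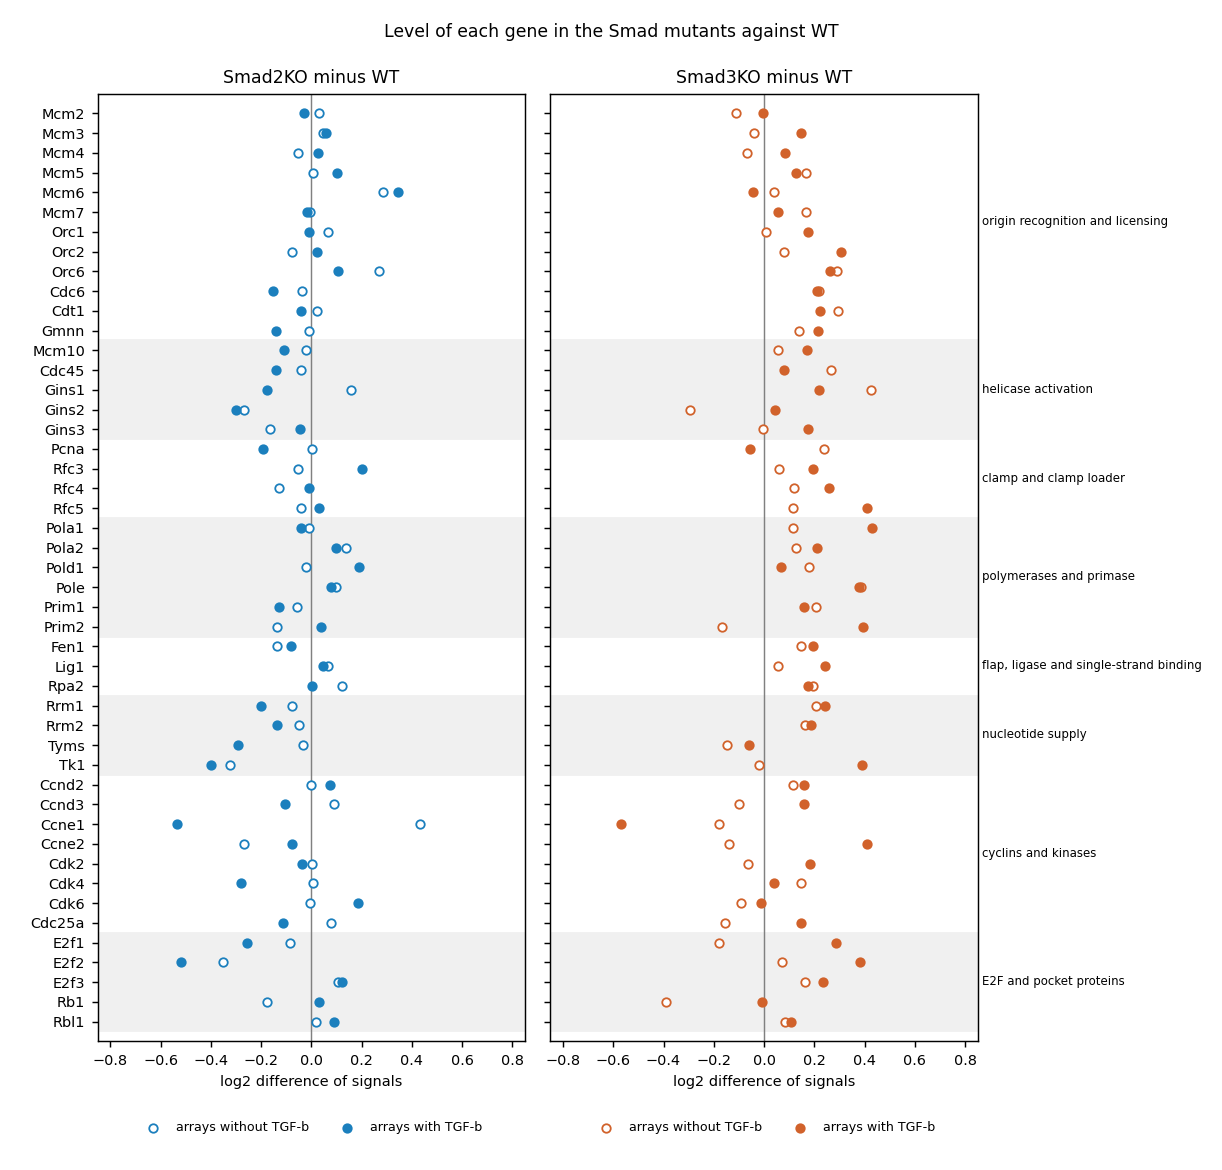
Log2 difference of signals of each gene from WT, for Smad2KO (left) and Smad3KO (right), in cultures without (open) and with TGF-b (filled). Smad2KO points scatter around 0 and most Smad3KO points lie right of it, with medians of 0.08 without and 0.175 with TGF-b.

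Directly against each other, Smad3KO exceeded Smad2KO for 2 of the 47 genes (4.26%), Rrm1 and Tk1, and 0 were lower, against 1.54% and 1.13% of all genes. Rrm1, the large subunit of ribonucleotide reductase, read 4486 and 4311 for Smad3KO, 3684 and 3164 for Smad2KO, and 3882 and 3640 for WT, so that both Smad3KO arrays were above the other 4. The log2 difference was 0.37 (SE 0.0825, adjusted p 0.0403), 0.28 without and 0.45 with TGF-b. Tk1 read 1097 and 1038 for Smad3KO and 890 and 601 for Smad2KO, with WT overlapping the former. Its difference was 0.54 (SE 0.126, adjusted p 0.0450), and it was 0.30 without and 0.79 with TGF-b. The call was lost under 6 alternatives for Rrm1 and 7 for Tk1, among them quantile normalization, with limma adjusted p from 0.0228 to 0.528 for Rrm1 and from 0.0134 to 0.660 for Tk1.

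Most other genes leaned the same way without passing. Smad3KO was above Smad2KO in both treatments for 28 of the 47 (59.6%, all genes 33.5%), the median difference was 0.16 (all genes 0.00), and 19 genes had an unadjusted p under 0.05 (40.4%, all genes 16.1%), 18 of them higher. The median over the 47 was 0.12 in cultures without TGF-b and 0.23 in those with it. E2f2 differed most (0.66, SE 0.168, adjusted p 0.0638), at 261 and 331 for Smad3KO against 194 and 177 for Smad2KO. The difference was 0.33 for Gins1, 0.31 for Cdc6 (SE 0.0872, adjusted p 0.0953) and 0.27 to 0.28 for Prim1, Fen1, Cdt1 and Rrm2. The values of Fen1 and Rrm2 come from sets that can cross-hybridise. Without sets of those kinds Rrm2 differed by 0.45. The other Fen1 set read 2545 and 2555 for Smad3KO against 2510 and 2202 for Smad2KO, nearly level without TGF-b. A second Cdt1 set differed less, at 1865 and 1919 against 1726 and 1780. Pole was the gene nearest to a call against WT in Smad3KO, at 1184 and 1172 there, 906 and 901 for WT and 970 and 951 for Smad2KO (0.38 above WT, SE 0.0969, adjusted p 0.132).

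Mcm6 was 1 of 6 genes lower in Smad3KO than in Smad2KO. The others were Ccne1 (-0.32, SE 0.212, adjusted p 0.521), Cdk6 (-0.14), Rb1 (-0.13), Mcm2 (-0.06) and Mcm3 (0.00). Mcm6 read 8198 and 8720 for Smad2KO, 6728 and 6873 for WT, and 6915 and 6671 for Smad3KO. The Smad2KO arrays were the highest of the 6 (0.31 above WT, SE 0.0814, adjusted p 0.135, and Smad3KO minus Smad2KO -0.32, SE 0.0814, adjusted p 0.0691). A second, dimmer Mcm6 set was also highest in Smad2KO, at 3913 and 4501, against 3774 and 3558 for WT and 3721 and 3834 for Smad3KO. Over all Mcm6 sets, including 1 under the floor, Smad3KO minus Smad2KO was -0.16. The other helicase subunits did not share the higher Smad2KO level. Smad2KO minus WT lay between -0.05 and 0.10 in each treatment for Mcm2, Mcm3, Mcm4, Mcm5 and Mcm7.

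Of the 47 genes 38 had more than 1 probe set, and 50 further sets of 34 genes were above the floor on all 6 arrays and bright on at least 1. Of these 50, 37 were lower on average with TGF-b, with a median of -0.11, and 34 had the sign of the gene's brightest set. Their medians by genotype were -0.12 for WT, -0.14 for Smad2KO and -0.03 for Smad3KO. The brightest sets of Mcm5, Pold1, Fen1, Rrm2, Ccne1 and Cdk4 (6 genes, suffix _x_at) and of Mcm3, Mcm7 and Gins2 (3 genes, suffix _s_at) are of the kinds that can bind other transcripts too. Ccnd2 had 7 sets, and the dimmest read 821 and 455 for WT, 879 and 614 for Smad2KO, and 869 and 813 for Smad3KO, with ratios of -0.85, -0.52 and -0.10, where the brightest was level. A dim Ccnd3 set read 83.6 and 118, 71.7 and 240, and 86.2 and 130, opposite to the brightest.

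**Figure D5:**
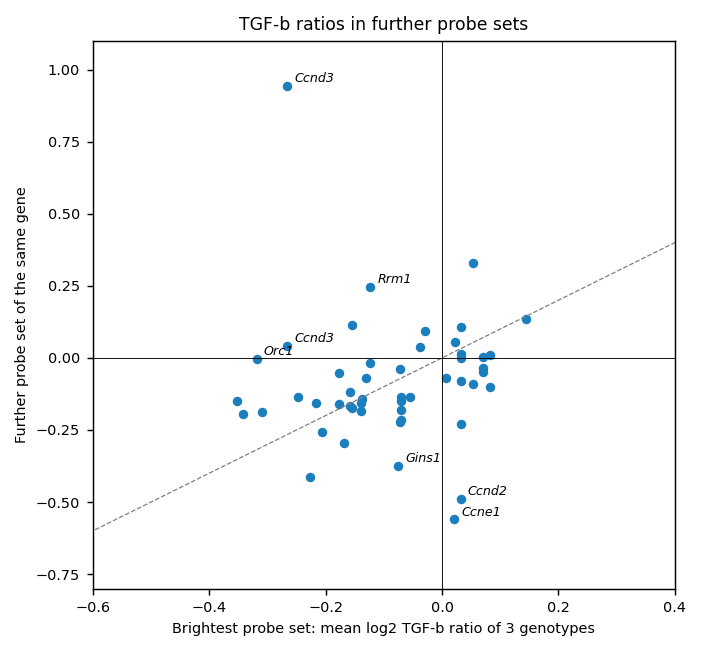
Mean log2 TGF-b ratio over 3 genotypes of each of 50 further probe sets (vertical axis) against that of the brightest set of the same gene (horizontal axis), with the line of equality dashed. Of the 50 points 34 share the sign of the brightest set, and named points of Ccnd2, Ccnd3, Ccne1, Gins1, Orc1 and Rrm1 lie far from the line.

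On the Smad2KO_Smad3het arrays the same genes had a median ratio of -0.12, with 30 below 0. Gins1 (1305 and 678) and Ccne1 (1983 and 934) were more than 1.5-fold lower, E2f2 (177 and 288) was higher, so 2 (4.26%) and 1 (2.13%) of the 47 passed the fold where 18.4% and 21.1% of all genes did. Gins3 read 124 and 86.2, Tyms 96.4 and 143, and E2f3 242 and 341. Fen1 read 25246 and 34758 there, against 2206 to 2718 on the other 6 arrays, from a set that can cross-hybridise. Across the 47 genes these ratios and those of WT had a Pearson r of -0.219.

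Other genes of the same processes, from lists that do not overlap the 47, were tested in the same fit. Of 44 other replication genes tested 0 rose and 3 fell (6.82%, all genes 5.61%), with a median of -0.11. They were Dbf4, the activator of the Cdc7 kinase that fires origins (fell by 0.49, SE 0.0828, adjusted p 0.00246), Dna2, a nuclease that trims flaps (-0.46, SE 0.117, adjusted p 0.0285), and Rnaseh2b, of the enzyme that removes ribonucleotides from DNA (-0.29, SE 0.0790, adjusted p 0.0347). Dbf4 read 1881 and 1212 for WT, 1764 and 1219 for Smad2KO, and 1857 and 1507 for Smad3KO. Of 20 other G1/S regulators tested 1 rose (5%, all genes 7.16%) and 2 fell (10.0%, all genes 5.61%), with a median of -0.17. Those shares are near the background. Rbl2, a pocket protein of resting cells, rose by 0.34 (SE 0.0941, adjusted p 0.0343), and the repressor E2f8 (-0.38, SE 0.109, adjusted p 0.0396) and Myc (-0.23, SE 0.0654, adjusted p 0.0364) fell. In the comparison of Smad3KO with Smad2KO 0 of the 44 and 0 of the 20 passed, where 1.54% of all genes were called higher and 1.13% lower. The median difference was 0.14 for the 44 and 0.02 for the 20.

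Genes with an E2F match before or after the start had a median mean response of -0.09 and 1 of 18 was called lower, Orc1, and genes with a promoter and no match had -0.15 and 4 of 20, Mcm10, Rfc4, Rfc5 and Tk1. These medians and counts are given with no test, beside 5.61% of all genes called lower.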

How the data were processed

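Deposited values were linear intensities, 1 for each probe set. The submitters' processing notes name GCOS 1.4, software of the array's maker, and the sources used here do not give its algorithm, background handling or scaling. The platform annotation gave a single gene symbol to 34945 of 45101 probe sets, several to 932, which were not used, and none to 9160, and 64 were control sets. Entrez identifiers matched all 47 genes to RefSeq, with 0 symbols changed.

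The 6 WT, Smad2KO and Smad3KO arrays were scaled to a common trimmed mean (2% off each end), set to at least a floor at the median of all scaled signals (32.5), and taken to log2. A gene was tested if its highest value on its brightest single-gene probe set reached 65.0, 2 times the floor. The Smad2KO_Smad3het arrays got the same scaling target. limma 3.58.1 in R 4.3.3 fitted genotype and TGF-b together (trend and robust variances, 2 residual degrees of freedom, 1 for differences between responses), with Benjamini-Hochberg adjustment over all genes at 0.05. The pipeline was tested on simulated data. Figures used matplotlib 3.10.9.

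The 47 genes, the other replication, other G1/S, CDK inhibitor and G2 and mitosis lists, and the markers of CD4 T, CD8 T, B, myeloid, NK and erythroid cells were chosen with earlier results of these data known. All 47 genes are named. Full values are given for those past 0.05 and for the 3 largest ratios per direction in each genotype, and for genes of other lists past 0.05, at most 6 per list and direction by p. Alternatives covered scaling, floor, filter, probe sets, arrays and limma settings. For arrays, their number limits the precision.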

Additional observations from a re-analysis of the deposited data

How the results depend on the processing

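With genotype as a term, the fit of the mean response compared arrays with and without TGF-b within each genotype. No pairing by animal was possible, because each group has 1 array and the labels carry no replicate numbers to pair by. The 5 genes lower in the mean response became 8 with arrays centred on their median (Ccnd3, Cdk2 and Pola1 added) and 0 with no filter, with the mean of all probe sets, with all 8 arrays, without limma trend and robust settings, or with no genotype block. Leaving out 1 genotype's pair gave 0 to 13. Without the sets ending in _s_at and _x_at, chosen after seeing the data, Ccne1 turned to -0.56 from 0.02. The 2 genes higher in Smad3KO than in Smad2KO became 0 with quantile normalization, no filter, a filter on mean signal, the mean of all probe sets, all 8 arrays, or without trend and robust settings, and 1 with a pseudocount of 16. They became 3 with centred arrays or a floor at the 25th percentile (E2f2 added in both) and 3 without the _s_at and _x_at sets (Rrm2 added). In the same comparison 1 gene, Mcm6, was called lower with quantile normalization and 1 with a floor at the 25th percentile, and 1 gene was called higher in Smad2KO than in WT with quantile normalization. At 1.5-fold, 2 genes were lower in Smad2KO on centred arrays and 2 without the _s_at and _x_at sets, 0 at 2-fold, and 1 was lower in WT with the mean of all probe sets. Over all genes the mean response had 1207 calls, with a range from 19 (all 8 arrays) to 1804 (without the Smad3KO pair), Smad2KO against WT 95 (2 to 147), Smad3KO against WT 44 (1 to 125), Smad3KO against Smad2KO 253 (9 to 348), the WT response difference 2 (0 to 10) and the Smad3KO response difference 36 (0 to 121). The cause was not tested. Counts of direction ranged less, with 23 to 32 genes lower in all 3 genotypes, 26 to 32 nearer 0 in Smad3KO, 29 to 32 above WT and 26 to 34 above Smad2KO.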

Other observations

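Genes of the later cell cycle were read in the same fits. Of 23 G2 and mitosis genes tested 0 rose (all genes 7.16%) and 7 fell (30.4%, all genes 5.61%) in the mean response to TGF-b. Their median was -0.30, and all 23 were below 0, against 53.5% of all genes. Aurkb, a kinase of chromosome segregation, read 792 without and 444 with TGF-b in WT, 736 and 403 in Smad2KO, and 859 and 748 in Smad3KO (mean log2 response -0.63, SE 0.132, limma adjusted p 0.0125). The others that fell were Cdk1, the mitotic kinase (-0.38), its cyclin Ccna2 (-0.29), Bub1 (-0.46), Cenpa (-0.51), Birc5 (-0.37) and Ube2c (-0.45). Smad3KO exceeded Smad2KO for 14 of the 23 (all genes, 1.54%), with a median of 0.64. Smad3KO exceeded WT for 3 of the 23 (all genes, 0.465% in either direction). Mki67 read 2455 and 2581 in Smad3KO against 1579 and 1370 in Smad2KO (0.78, SE 0.0955, adjusted p 0.00125).

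Of 7 inhibitors of cyclin-dependent kinases 4 were tested. Cdkn1b, which encodes p27, rose by 0.76 with TGF-b (SE 0.147, limma adjusted p 0.00573), at 129 and 233 in WT, 130 and 225 in Smad2KO, and 129 and 201 in Smad3KO, so that treated and untreated cultures did not overlap. Cdkn1a, which encodes p21, was higher in Smad3KO than in Smad2KO by 1.22 (SE 0.134, adjusted p 0.000648), at 1013 and 1004 against 433 and 435, with 570 and 789 in WT.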
